A study of Rattus norvegicus with 138 samples.

Results

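The tachykinin system of the rat brainstem is described here through 4 genes chosen by name, the peptide precursors Tac1 and Tac3 and the receptors Tacr1 and Tacr3. They are 4 of the 32883 genes listed for these samples, and all 4 passed the filter on low expression in each of 3 brainstem regions. RNA was sequenced from punches of the solitary tract nucleus (NTS), the caudal ventrolateral medulla (CVLM) and the rostral ventrolateral medulla (RVLM), which form the medullary circuit that sets sympathetic outflow and arterial pressure. The rats were untreated females of the spontaneously hypertensive strain (SHR/NHsd, in which arterial pressure rises with age) and of the Wistar-Kyoto strain (WKY/NHsd, the normotensive strain used as control). WKY groups held 5, 4, 3, 3 and 3 rats and SHR groups held 5, 5, 6, 6 and 6 rats, with ages in the order 8, 10, 12, 16, 24 wk. Each of the 46 rats gave 1 library per region, made from punches of both sides of the brainstem, and the libraries were compared within and between rats. A punch holds every cell type of the tissue it takes, and the 2 strains were bred apart, so that genetic background and blood pressure cannot be told apart.

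Tachykinins are short neuropeptides with a shared carboxyl-terminal motif. Tac1 encodes substance P and neurokinin A, whereas the rat gene Tac3 encodes neurokinin B. Tacr1 and Tacr3 encode the NK1 and NK3 receptors, Gq-coupled receptors that prefer substance P and neurokinin B, respectively. In the brainstem, substance P is a transmitter of visceral afferents that end in NTS, and NK1 receptors mark neurons of the ventrolateral medulla that take part in respiratory and cardiovascular control.

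The libraries held between 5904570 and 17889406 counts, with a median of 10143018. The labelled regions were checked against marker genes, with levels given as CPM, a count relative to the total of its library, scaled by the trimmed mean of M values (TMM). Dbh, the noradrenaline-synthesising enzyme, had a median of 67.6 CPM in NTS, 85.0 in CVLM and 9.55 in RVLM. Pnmt, which makes adrenaline and marks the C1 neurons for which RVLM is known, had medians of 3.60, 41.8 and 19.7 CPM, so that it was lower in the libraries labelled RVLM than in those labelled CVLM. Chat, the acetylcholine-synthesising enzyme, had medians of 61.0, 18.5 and 243 CPM in NTS, CVLM and RVLM, so that the libraries labelled RVLM were rich in cholinergic and motor neuron markers. The choroid plexus gene Ttr exceeded 100 CPM in 4 NTS libraries and 1 CVLM library, all from WKY rats, and reached 4293 CPM. The names of the libraries end in 1 or 2, a number whose meaning is not stated. It was 2 for all rats at 10 wk, for 3 of the 5 WKY rats at 8 wk and for 1 SHR each at 12 and 24 wk, and calls that were lost without the number-2 libraries outside 10 wk are given with their values. The highest value of Tph2, a marker of serotonin neurons, was 122 CPM in 1 CVLM library of a 10 wk WKY rat against a median of 5.37 CPM in that region.

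The stretches just upstream of the annotated starts are shown for the 3 members found in the RefSeq promoter set of build GRCr8 (3 of 4 matched), to place the genes in the genome. Each is 250 bases long, 5′ to 3′ on the plus strand, and capitals mark motif matches on either strand. The letters TGACG were searched as the half-site of the cAMP response element (CRE). The promoter element named for its T and A letters was searched as TATAAA. Tac1 lies at chr4:36645333-36645582, Tacr1 at chr4:116478367-116478616 and Tacr3 at chr2:225940247-225940496.
Tac1: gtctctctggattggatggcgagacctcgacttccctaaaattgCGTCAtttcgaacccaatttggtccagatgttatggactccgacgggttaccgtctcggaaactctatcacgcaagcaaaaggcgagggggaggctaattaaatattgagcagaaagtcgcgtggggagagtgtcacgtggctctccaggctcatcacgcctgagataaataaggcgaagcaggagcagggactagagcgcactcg
Tacr1: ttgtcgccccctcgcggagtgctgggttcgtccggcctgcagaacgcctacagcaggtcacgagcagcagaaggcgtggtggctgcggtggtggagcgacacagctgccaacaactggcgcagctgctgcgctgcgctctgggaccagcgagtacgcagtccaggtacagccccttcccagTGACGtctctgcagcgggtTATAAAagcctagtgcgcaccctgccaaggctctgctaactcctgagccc
Tacr3: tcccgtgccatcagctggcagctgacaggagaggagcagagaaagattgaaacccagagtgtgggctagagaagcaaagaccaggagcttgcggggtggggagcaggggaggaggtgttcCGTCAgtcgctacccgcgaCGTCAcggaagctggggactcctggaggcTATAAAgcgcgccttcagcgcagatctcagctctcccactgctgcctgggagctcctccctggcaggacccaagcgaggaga
The CRE half-site was found 1 time upstream of Tac1, 1 time upstream of Tacr1 and 2 times upstream of Tacr3, and 18.2% of all 33469 promoter windows of that length held it. The TATAAA letters were found 1 time each upstream of Tacr1 and Tacr3, against 12.9% of all windows. These letters are those of the reference genome, and neither the sequence of the SHR and WKY rats nor binding at these sites was measured.

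Tac1 was expressed in every library, and its level fell from NTS and CVLM to RVLM in both strains. In WKY rats Tac1 ranged from 74.1 to 234 CPM in NTS (median 128, n = 18), from 64.0 to 131 CPM in CVLM (median 121) and from 45.8 to 119 CPM in RVLM (median 64.8). In SHRs it ranged from 51.8 to 187 CPM in NTS (median 90.3, n = 28), from 63.1 to 130.0 CPM in CVLM (median 89.8) and from 18.1 to 127 CPM in RVLM (median 56.4). The ranges of the regions overlapped, but within a rat NTS was above RVLM in 14 of 18 WKY rats and 26 of 28 SHRs. With the rat as a block, Tac1 was higher in NTS than in RVLM by 0.87 ± 0.15 (log2 fold change ± SE) in WKY rats and by 0.92 ± 0.12 in SHRs (edgeR adjusted p = 4.24e-07 and 1.65e-10). It was also higher in CVLM than in RVLM, by 0.57 ± 0.15 in WKY rats and 0.84 ± 0.12 in SHRs (adjusted p = 9.64e-04 and 4.06e-09). NTS and CVLM differed by 0.30 ± 0.15 in WKY rats and 0.08 ± 0.12 in SHRs, and neither difference passed the test (adjusted p = 0.0794 and 0.592). Many genes differed between regions. Of the 14043 genes tested in this fit, 62.3% and 64.4% were called between NTS and RVLM in WKY rats and SHRs, 39% and 44.9% between CVLM and RVLM, and 52.6% and 55.7% between NTS and CVLM.

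Tac3 was lowest in RVLM and highest in CVLM. In WKY rats it ranged from 0.311 to 3.09 CPM in NTS (median 1.25), from 1.77 to 9.54 CPM in CVLM (median 5.13) and from 0.109 to 3.63 CPM in RVLM (median 0.607). In SHRs it ranged from 0.828 to 4.34 CPM in NTS (median 2.01), from 3.90 to 15.5 CPM in CVLM (median 7.06) and from 0.295 to 3.57 CPM in RVLM (median 0.998). CVLM was above NTS and above RVLM in all 18 WKY rats and all 28 SHRs. The CVLM level exceeded that of NTS by 2.11 ± 0.23 in WKY rats and 1.95 ± 0.17 in SHRs on the log2 scale, that is 4.31-fold and 3.86-fold (adjusted p = 1.46e-12 and 6.63e-17). It exceeded that of RVLM by 2.86 ± 0.26 and 2.64 ± 0.18 (7.27-fold and 6.23-fold, adjusted p = 4.57e-16 and 3.70e-22). NTS was above RVLM by 0.76 ± 0.29 in WKY rats and 0.69 ± 0.19 in SHRs (adjusted p = 0.0204 and 0.00136). The WKY call was lost without the WKY rat replicate 1 at 10 wk, where the difference was 0.62 ± 0.29. RVLM libraries held between 1 and 57 Tac3 counts, so that counting error is large there.

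Tacr1 was higher in RVLM than in NTS and CVLM in SHRs, and no pair of regions was called in WKY rats. In WKY rats it ranged from 2.18 to 8.56 CPM in NTS (median 4.85), from 1.91 to 8.19 CPM in CVLM (median 4.88) and from 1.97 to 7.22 CPM in RVLM (median 4.65). In SHRs it ranged from 1.89 to 8.31 CPM in NTS (median 5.10), from 3.57 to 8.16 CPM in CVLM (median 6.05) and from 3.36 to 12.2 CPM in RVLM (median 7.73). RVLM was above NTS in 24 of 28 SHRs and in 6 of 18 WKY rats. In SHRs RVLM exceeded NTS by 0.68 ± 0.11 and CVLM by 0.44 ± 0.10 on the log2 scale (adjusted p = 3.10e-08 and 2.47e-04). CVLM was above NTS in SHRs by 0.24 ± 0.11 (adjusted p = 0.0496), a call that was lost when any of 21 single rats was left out, with effects of 0.19 to 0.29. In WKY rats none of the 3 pairs of regions passed the edgeR test: NTS differed from CVLM by 0.12 ± 0.14 and from RVLM by 0.17 ± 0.14, and CVLM differed from RVLM by 0.05 ± 0.14 (adjusted p = 0.480, 0.292 and 0.834), with no unadjusted p under 0.05. Tacr1 counts were not whole numbers in 88 libraries, since the authors' counting divided reads that fit more than 1 transcript, and its values are less certain for that reason.

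Tacr3 was highest in NTS, lower in CVLM and lowest in RVLM. In WKY rats it ranged from 22.7 to 58.2 CPM in NTS (median 42.4), from 3.91 to 10.8 CPM in CVLM (median 7.06) and from 1.496 to 5.90 CPM in RVLM (median 3.32). In SHRs it ranged from 9.93 to 44.1 CPM in NTS (median 21.0), from 3.76 to 12.2 CPM in CVLM (median 7.01) and from 1.68 to 7.13 CPM in RVLM (median 3.38). NTS was above both other regions in all 18 WKY rats and all 28 SHRs, and in WKY rats the NTS values did not overlap those of CVLM or RVLM. NTS exceeded RVLM by 3.61 ± 0.17 in WKY rats and 2.56 ± 0.13 in SHRs on the log2 scale (12.2-fold and 5.91-fold, adjusted p = 1.31e-31 and 9.72e-30). NTS exceeded CVLM by 2.52 ± 0.16 and 1.61 ± 0.12 (5.75-fold and 3.04-fold, adjusted p = 6.14e-24 and 1.73e-19). CVLM exceeded RVLM by 1.09 ± 0.17 and 0.96 ± 0.13 (adjusted p = 1.36e-07 and 4.30e-09).

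**Figure D1:**
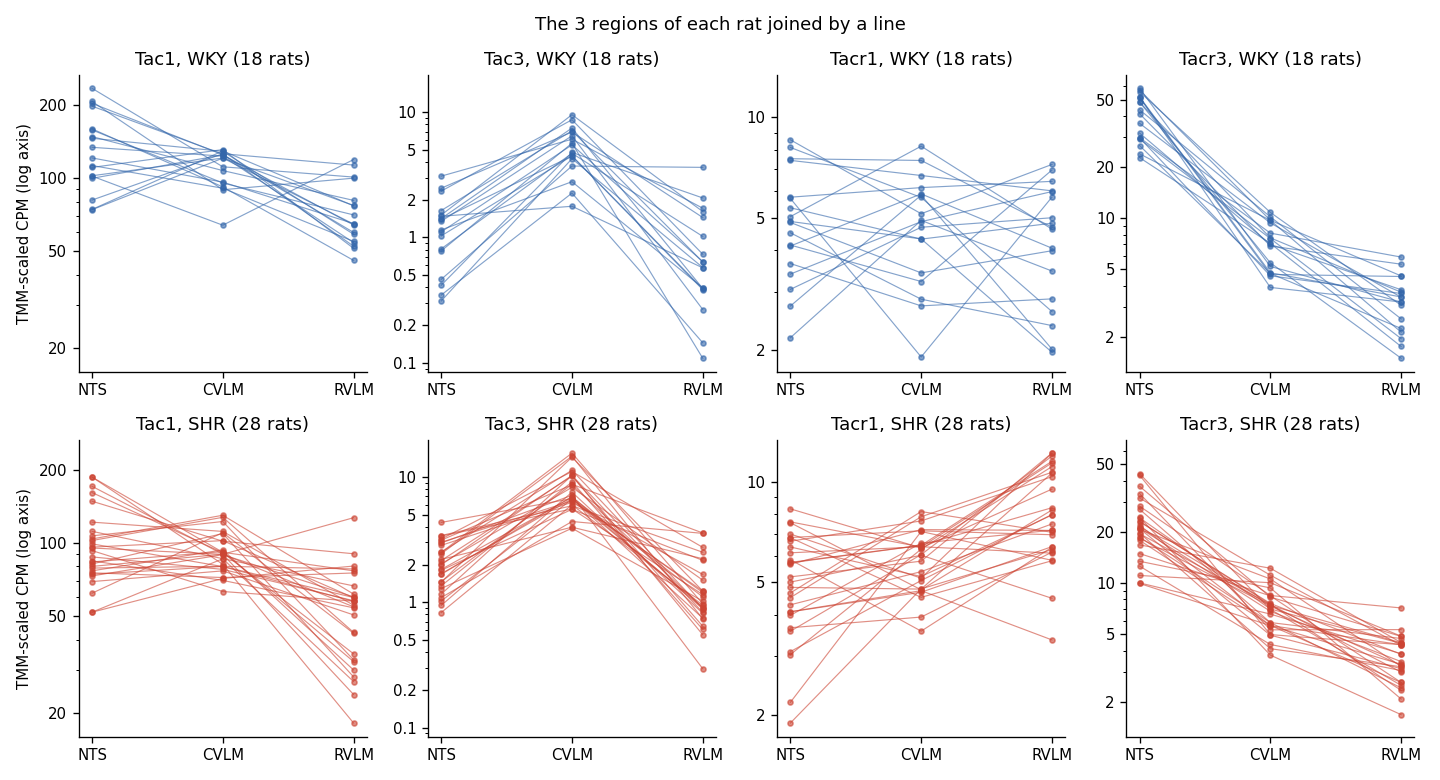
TMM-scaled CPM (log axis) of each member in the 3 regions, with 1 line for each rat, WKY rats above and SHRs below. Tac3 peaks in CVLM and Tacr3 in NTS in all rats of both strains, and Tacr1 climbs to RVLM in SHRs, where 24 of 28 rats had more in RVLM than in NTS.

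The comparison of SHRs with WKY rats was made first over all ages, as the mean of the 5 age-specific log2 fold changes, to ask whether tachykinin transcripts differ between the strains. In NTS, 3 of the 4 members were called at an adjusted p under 0.05, against 11.2% of all genes tested there. In CVLM 2 of 4 were called, against 12.3%, and in RVLM 2 of 4, against 10.8%. Tac1 was lower in SHRs in all 3 regions, Tac3 was higher in NTS and CVLM, Tacr3 was lower in NTS and Tacr1 was higher in RVLM. In bulk tissue, fewer cells that express a gene and less RNA per cell cannot be told apart.

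**Figure D2:**
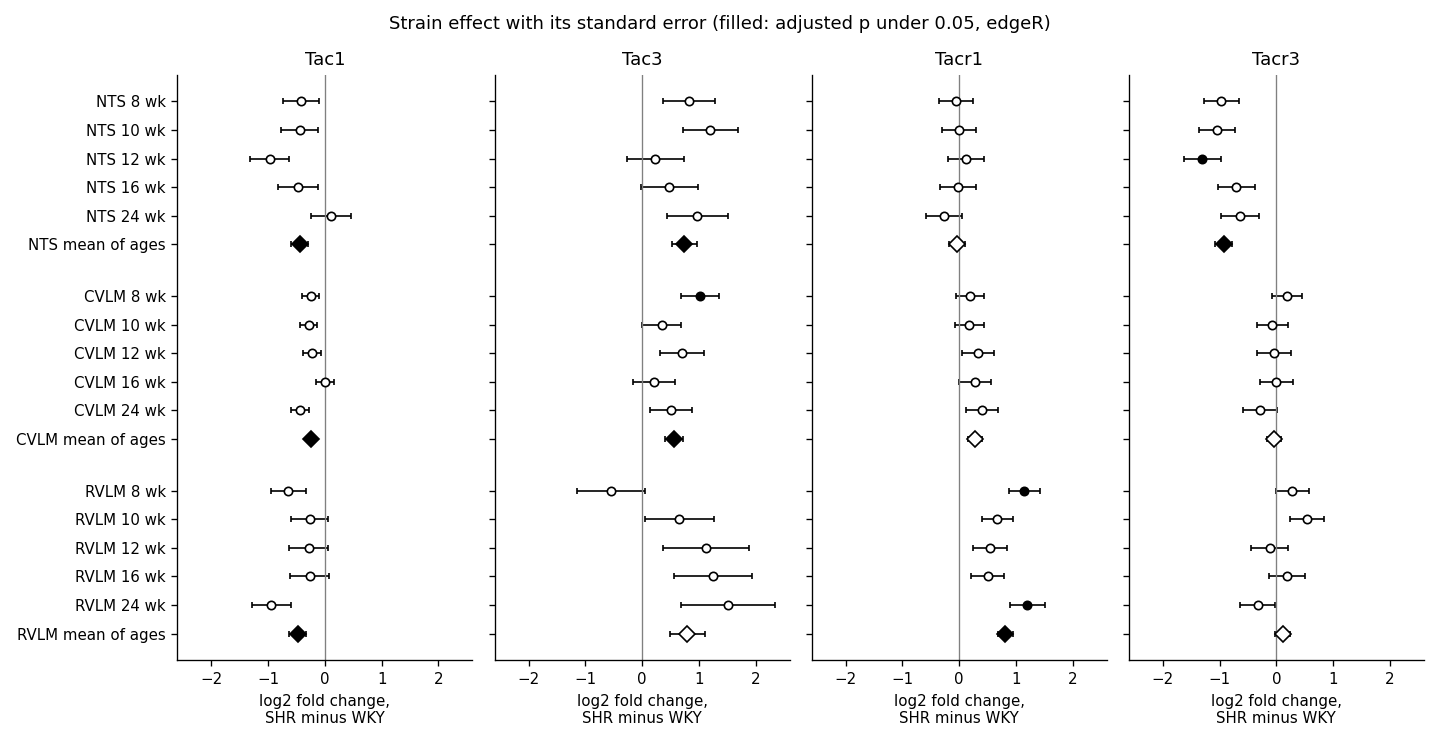
Log2 fold change of SHR minus WKY with its SE for each member, region and age (circles) and over ages (diamonds), filled where the edgeR adjusted p was under 0.05. The filled diamonds of Tacr3 in NTS at -0.93 and of Tacr1 in RVLM at 0.82 lie farthest from 0 among the 7 filled diamonds.

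Tac1 was 1.36-fold lower in SHRs in NTS, 1.18-fold lower in CVLM and 1.397-fold lower in RVLM over the 5 ages. In RVLM at 8 wk the WKY rats had 54.3, 58.7, 64.1, 65.0 and 77.1 CPM and the SHRs 26.8, 28.1, 33.0, 57.5 and 59.5 CPM. At 24 wk in RVLM the WKY rats had 76.9, 81.0 and 113 CPM, and the 6 SHRs lay between 23.7 and 75.2 CPM with a median of 46.7. The strains overlapped at 8 wk, where 3 SHRs lay well below every WKY rat, and did not overlap at 24 wk, where every SHR was below every WKY rat, as for 5.67% of all genes tested in that comparison. The values at 10 wk were 51.4, 52.4, 59.7 and 64.7 CPM in WKY rats and 18.1, 42.4, 55.4, 59.6 and 61.6 CPM in SHRs. At 12 wk the WKY rats had 45.8, 70.5 and 101 CPM against 29.97 to 90.2 CPM (median 60.3) in SHRs, and at 16 wk 54.9, 99.96 and 119 CPM against 57.6 to 127 CPM (median 68.3). At these 3 ages the ranges of the strains overlapped. The effect over ages in RVLM was -0.48 ± 0.15 on the log2 scale (adjusted p = 0.0273), and no single age passed the test, with the largest effect of -0.94 ± 0.34 at 24 wk (adjusted p = 0.174). The call over ages was lost when the WKY rat replicate 1 at 12 wk, replicate 3 at 16 wk or replicate 3 at 24 wk was left out, and the effect without 1 rat lay between -0.54 and -0.42. It was also lost without the number-2 libraries (-0.47, adjusted p = 0.0748) and with a block for rats of the same replicate number.

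In NTS, Tac1 had 158, 159.6 and 234 CPM in the 12 wk WKY rats, whereas the 6 SHRs of that age lay between 51.8 and 149 CPM with a median of 83.9. Every SHR was thus below every WKY rat at 12 wk, as for 3.57% of all genes tested there. The effect at 12 wk was -0.98 ± 0.34 and did not pass the test (adjusted p = 0.133), nor did Tac1 in NTS at any other single age. The WKY rats replicate 2 and replicate 3 of that age, with 159.6 and 158 CPM of Tac1, gave libraries rich in Ttr. At 24 wk the order was not kept, with 74.3, 81.2 and 148 CPM in WKY rats and 69.3 to 171 CPM (median 91.2) in SHRs. The effect over ages in NTS was -0.44 ± 0.15 (adjusted p = 0.0496), next to the threshold, and the call was lost when any of 32 single rats was left out, with effects of -0.50 to -0.36. In CVLM the effect was smaller, at -0.24 ± 0.07 (adjusted p = 0.0151), and the call was lost without the number-2 libraries (-0.22, adjusted p = 0.0710). This CVLM call was also lost with a block for rats of the same replicate number. The CVLM values at 24 wk were 107, 126 and 129 CPM in WKY rats and 72.0 to 127 CPM (median 89.9) in SHRs, among which 5 of 6 lay below every WKY rat. At 16 wk the CVLM means were 81.5 ± 15.2 CPM in WKY rats (SD, n = 3) and 81.9 ± 10.8 CPM in SHRs (n = 6), a difference well within the spread of the rats.

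Tac3, whose peptide prefers the NK3 receptor, was 1.68-fold higher in NTS and 1.47-fold higher in CVLM of SHRs. In CVLM at 8 wk the WKY rats had 3.71, 4.25, 4.48, 6.08 and 9.54 CPM and the SHRs 6.28, 10.3, 11.3, 14.4 and 14.6 CPM. All but 1 of these SHRs were above every WKY rat. This was the one age at which Tac3 passed the test in CVLM, with an effect of 1.02 ± 0.33 (adjusted p = 0.0462, against 7.64% of all genes called there). The call was lost when any of 7 of these 10 rats was left out (effects of 0.93 to 1.31). Among the 7 were replicate 5 of each strain, whose CVLM libraries have an age label of 10 wk. Without the 3 WKY libraries whose names end in 2 the effect was 0.57 (adjusted p = 1). Without the number-2 libraries outside 10 wk, 210 of 13408 genes were called in CVLM at 8 wk, against 1025 with all libraries. At 10 wk the values were 2.26, 4.70, 4.77 and 6.48 CPM in WKY rats and 3.90, 4.41, 6.66, 6.70 and 7.14 CPM in SHRs. At 12 wk they were 1.77, 4.47 and 8.69 CPM against 6.00 to 11.1 CPM (median 8.46). At 24 wk they were 5.48, 5.65 and 7.47 CPM against 3.97 to 15.5 CPM (median 8.86). The SHR median lay above the WKY median at each of these ages, while the ranges overlapped. At 16 wk the order of the medians was the other way, with 2.79, 6.94 and 7.10 CPM in WKY rats and 5.52 to 8.74 CPM (median 6.17) in SHRs. Over ages the effect in CVLM was 0.56 ± 0.16 (adjusted p = 0.0146), and the call was lost without the number-2 libraries (0.49, adjusted p = 0.0626). This call over ages was also lost with a block for rats of the same replicate number.

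In NTS the effect on Tac3 over ages was 0.74 ± 0.22 (adjusted p = 0.0197), with no call at a single age. The NTS values at 8 wk were 0.311, 0.463, 1.03, 1.51 and 3.09 CPM in WKY rats and 1.45, 1.99, 2.44, 2.51 and 2.84 CPM in SHRs. At 10 wk they were 0.347, 0.416, 0.811 and 1.35 CPM against 1.02, 1.09, 1.29, 1.69 and 2.97 CPM. The strains overlapped at both ages, and the lowest values at each were those of WKY rats. In RVLM the effect was similar in size, 0.80 ± 0.31, but did not pass the test (adjusted p = 0.105). At 24 wk in RVLM every SHR (0.644 to 2.23 CPM, median 0.872) was above every WKY rat (0.109, 0.392 and 0.641 CPM), as for 3.8% of all genes tested there, whereas at 8 wk the WKY mean of 1.58 ± 1.29 CPM (SD, n = 5) was above the SHR mean of 1.02 ± 0.442 CPM (n = 5). The 24 wk effect of 1.51 ± 0.83 did not pass the test (adjusted p = 0.376).

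Tacr1 was 1.76-fold higher in RVLM of SHRs, with an effect over ages of 0.82 ± 0.13 (adjusted p = 6.71e-06). At 8 wk the WKY rats had 2.01, 2.37, 3.46, 4.62 and 4.68 CPM and the SHRs 5.82, 6.12, 7.16, 7.17 and 12.0 CPM. At 24 wk the WKY rats had 2.61, 3.98 and 5.99 CPM, and the 6 SHRs lay between 7.07 and 12.2 CPM with a median of 9.75. At both ages every SHR was above every WKY rat, as for 2.93% of all genes tested at 8 wk and 3.8% at 24 wk. The effects were 1.15 ± 0.27 at 8 wk and 1.20 ± 0.31 at 24 wk (adjusted p = 0.00464 and 0.0224), where 9.78% and 2.24% of all genes were called. Without the 3 WKY libraries whose names end in 2 the 8 wk effect was 0.67 (adjusted p = 0.539). Without the number-2 libraries outside 10 wk, 230 of 13411 genes were called in RVLM at 8 wk, against 1311 with all libraries. The 24 wk call was lost without SHR replicate 2, WKY replicate 1 or WKY replicate 3 (effects of 0.94 to 1.56). The 8 wk effect also passed the stricter rule of an adjusted p of 0.01 or less with a 2-fold change, as 1.64% of all genes did there. At 10 wk the WKY rats had 1.97, 2.85, 4.05 and 4.99 CPM and the SHRs 3.36, 4.48, 6.16, 6.27 and 7.49 CPM. At 12 wk the values were 4.81, 5.76 and 6.42 CPM against 5.81 to 10.6 CPM (median 8.11), and at 16 wk 6.02, 6.95 and 7.22 CPM against 6.37 to 12.2 CPM (median 10.1). At these 3 ages the lowest SHRs fell within the WKY range, and the effects of 0.67 ± 0.28, 0.54 ± 0.30 and 0.51 ± 0.29 did not pass the test (adjusted p = 0.392, 0.885 and 1).

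In the other regions Tacr1 did not pass the test over ages. The strain effect was -0.04 ± 0.14 in NTS (adjusted p = 0.929) and 0.28 ± 0.12 in CVLM (adjusted p = 0.149). In CVLM it passed (0.36 ± 0.12, adjusted p = 0.0416) when the 1 library rich in Ttr was left out, from the WKY rat replicate 2 at 12 wk, which had 6.15 CPM of Tacr1, the highest of its group of 3. The strain effect in NTS minus that in RVLM was -0.85 ± 0.17 (adjusted p = 0.00110). Tacr1 and Tacr3 were the 2 of 4 members called for this difference, against 1.81% of all genes. The strain effect in CVLM minus that in RVLM was -0.49 ± 0.17 and did not pass the test (adjusted p = 0.465).

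Tacr3 was 1.90-fold lower in NTS of SHRs, with an effect over ages of -0.93 ± 0.15 (adjusted p = 5.31e-06). At 8 wk the WKY rats had 22.7, 29.3, 29.7, 36.2 and 51.9 CPM and the SHRs 10.0, 13.4, 18.4, 23.0 and 24.2 CPM. At 10 wk the WKY rats had 23.9, 26.8, 48.3 and 51.7 CPM and the SHRs 9.93, 12.6, 17.8, 21.1 and 27.2 CPM. At both ages the strains overlapped by the lowest 1 or 2 WKY rats. At 12 wk the WKY rats had 51.4, 55.6 and 58.2 CPM, and the 6 SHRs lay between 14.9 and 33.7 CPM with a median of 21.4. Here every SHR was below every WKY rat, as for 3.57% of all genes tested, and the effect of -1.30 ± 0.33 was the one effect at a single age that passed the test (adjusted p = 0.0145, against 3.1% of all genes called at that age). This call was lost without WKY replicate 2 or replicate 3 (effects of -1.46 to -1.20), which were the libraries rich in Ttr at that age, and without both and the other libraries rich in Ttr the effect was -1.26 (adjusted p = 0.370). At 16 wk the values were 41.2, 43.5 and 48.2 CPM in WKY rats and 19.5 to 43.1 CPM (median 24.9) in SHRs. At 24 wk they were 29.8, 31.7 and 56.9 CPM against 11.1 to 44.1 CPM (median 21.4). The SHR median stayed below the lowest WKY rat at all 5 ages. The effects at 8 and 10 wk were -0.97 ± 0.31 and -1.04 ± 0.32 and lay just outside the threshold (adjusted p = 0.0547 and 0.0504), and those at 16 and 24 wk were -0.70 ± 0.33 and -0.63 ± 0.33 (adjusted p = 0.700 and 0.428).

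Tacr3 was not called for strain in the other regions. In CVLM and RVLM the strain effects over ages were -0.04 ± 0.13 and 0.11 ± 0.14 (adjusted p = 0.917 and 0.697), and the strains overlapped at every age. The strain effect in NTS differed from that in CVLM by -0.92 ± 0.20 (adjusted p = 0.00698) and from that in RVLM by -1.05 ± 0.21 (adjusted p = 7.39e-04). Between NTS and CVLM, Tacr3 was the 1 member called for such a difference, against 0.442% of all genes. Between CVLM and RVLM none of the 4 members was called by edgeR (0.32% of all genes), with Tacr1 the 1 member at an unadjusted p under 0.05.

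**Figure D3:**
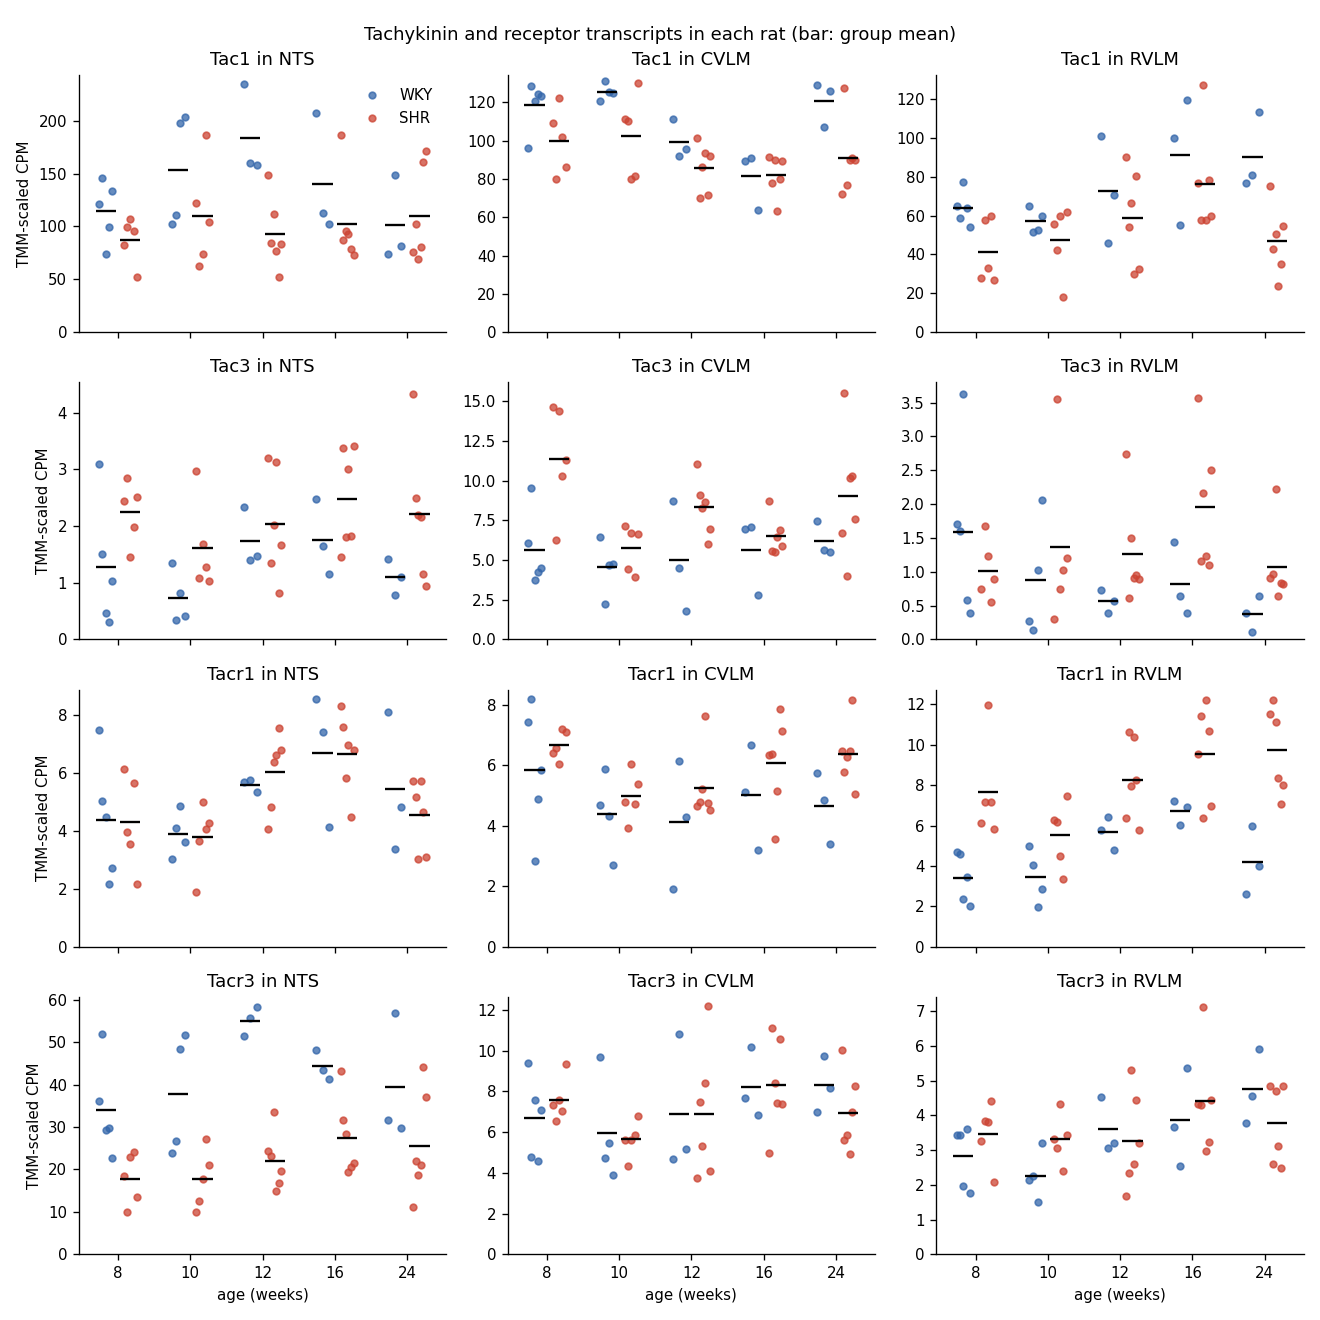
TMM-scaled CPM of each member in each rat by age, region and strain, where a point is a rat and a bar is the group mean. The SHRs lie below the WKY rats for Tacr3 in NTS and above them for Tacr1 in RVLM, with no overlap at 12 wk for the former and at 8 and 24 wk for the latter.

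The design also asked whether the strain effect changes with age. None of the 12 pairs of member and region passed the joint test over the 5 ages with edgeR, none had an unadjusted p under 0.05, and none was called by DESeq2. The share of all genes called for such a change was 0.0145% in NTS, 0.0224% in CVLM and 0.00746% in RVLM, so that ages with and without a call are not shown to differ. In the remaining comparisons at a single age no member was called by edgeR: in NTS at 8, 10, 16 and 24 wk 5.79%, 4.44%, 1.73% and 2.46% of all genes were called, in CVLM at 10, 12, 16 and 24 wk 3.18%, 2.62%, 2.27% and 7.13%, and in RVLM at 10, 12 and 16 wk 2.3%, 1.7% and 1.65%. An unadjusted p under 0.05 was found for 4 pairs of member and age in NTS, 1 in CVLM and 1 in RVLM, and DESeq2 called 2, Tacr3 in NTS at 8 and 10 wk (adjusted p = 0.0310 and 0.0220).

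Within a strain, few members were called for age. In WKY rats, Tac1 in CVLM was the 1 of 12 pairs that passed the joint test of age (adjusted p = 0.0445), where 22.2% of all genes passed in CVLM, 12.5% in NTS and 6.79% in RVLM. The means of Tac1 in CVLM of WKY rats were 119, 126, 99.6, 81.5 and 121 CPM from the youngest to the oldest group, so that the level was lowest at 16 wk and back at 24 wk. The call was lost when any of 13 single WKY rats was left out (adjusted p of 0.0298 to 0.218) and without the number-2 libraries (adjusted p = 0.0752). An unadjusted p under 0.05 was found for 3 of the 12 pairs in WKY rats, and DESeq2 called 2, Tac1 in CVLM and Tacr1 in RVLM (adjusted p = 0.0321 for the latter). In SHRs none of the 12 pairs passed with edgeR (20% of all genes in CVLM, 18.7% in NTS and 14.1% in RVLM), 4 had an unadjusted p under 0.05, and DESeq2 called 0. The shares called for age depended on the library-name number, which was 2 for all rats at 10 wk. With the number as a term, 54, 6 and 6 genes passed in CVLM, NTS and RVLM of WKY rats, against 2970, 1726 and 911. In SHRs 91, 69 and 26 genes passed, against 2682, 2580 and 1891. The number and the age of 10 wk cannot be fully told apart. Tacr1 in RVLM came nearest in WKY rats (adjusted p = 0.0744), with means of 3.43, 3.47, 5.66, 6.73 and 4.19 CPM, and it reached 7.65, 5.55, 8.24, 9.53 and 9.72 CPM in SHRs (adjusted p = 0.0957).

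The members were set beside marker genes of the cell types that a punch can hold, as the correlation of each rat's deviation from its group mean with the mean level of a marker list over the 46 rats of a region. The points of a region share their libraries, and the correlations are given as a description. In NTS, Tacr3 rose and fell with the noradrenergic and adrenergic list (r = 0.70) and against the oligodendrocyte list (r = -0.77), and Tac1 moved likewise but less closely (r = 0.42 and -0.54). The highest r of Tac1 in NTS was that with the ependyma list (r = 0.52). In RVLM, Tac1 moved against the cholinergic and motor list (r = -0.60), whereas Tacr1 did not follow it (r = -0.09). In CVLM, Tacr1 moved with the inhibitory list (r = 0.61), and it did so less closely in NTS (r = 0.51) and RVLM (r = 0.37). Tac1 and Tacr3 moved together in NTS (r = 0.67) and RVLM (r = 0.50) but not in CVLM (r = -0.35).

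**Figure D4:**
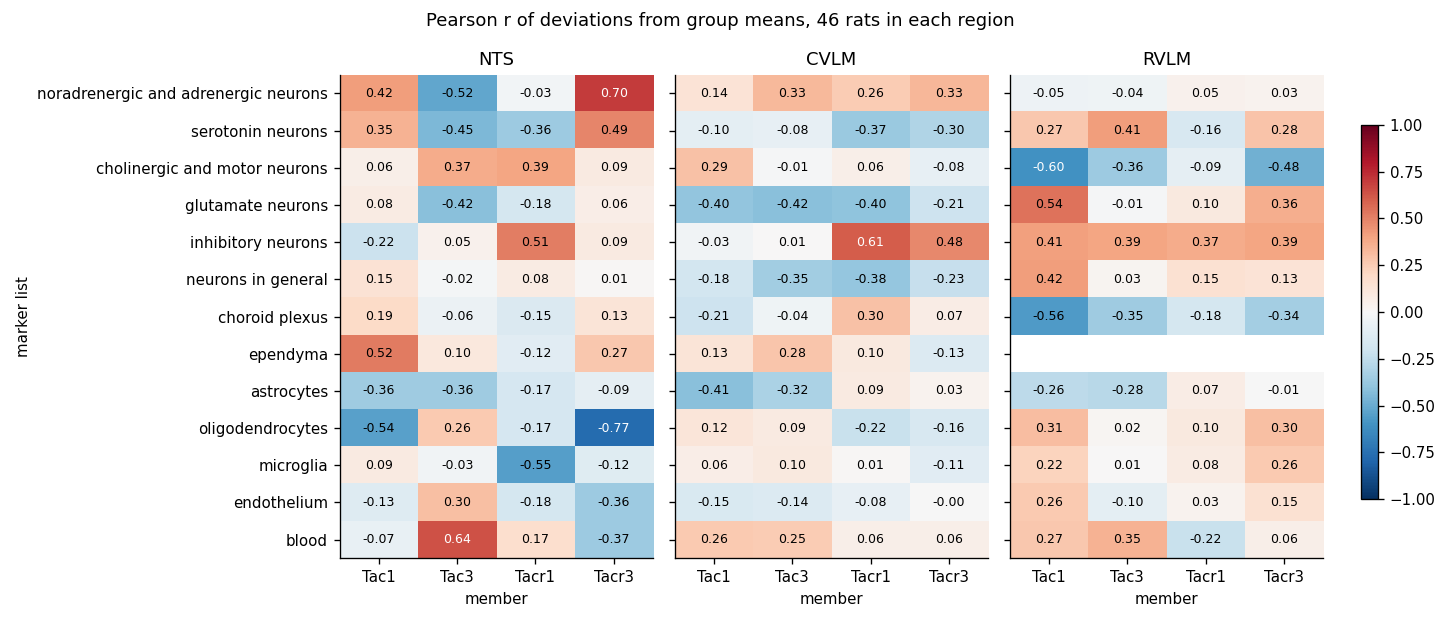
Pearson r between the deviations of each member and of each marker list from their group means over 46 rats, by region, with the scale from blue (-1) to red (1). The strongest cells are those of Tacr3 in NTS, at 0.70 with the noradrenergic and adrenergic list and -0.77 with the oligodendrocyte list, and the blank row in RVLM is a list with no gene past the filter.

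The strain effect on these lists was also counted. In NTS none of the 6 noradrenergic and adrenergic markers was called for strain by edgeR (median log2 fold change -0.22), but 5 of the 6 had negative effects and 4 an unadjusted p under 0.05. Pnmt, the gene that moved most closely with Tacr3, had an effect of -0.89 ± 0.34 (adjusted p = 0.0824), close in size to that of Tacr3, and those of Th, Dbh and Slc18a2 lay between -0.24 and -0.20. The summed level of the list ran from 174 to 366 CPM in WKY rats and from 137 to 345 CPM in SHRs. The 3 serotonin markers and the 5 cholinergic and motor markers tested in NTS had medians of -0.33 each, with none called by edgeR. Tacr3 moved with the serotonin list too (r = 0.49) but hardly with the cholinergic list (r = 0.09). Medians were -0.02 for the inhibitory list (1 of 4 lower in SHRs), -0.02 for neurons in general and 0.40 for the glutamate list. In NTS none of the 4 oligodendrocyte markers was called (median 0.11, with sums of 17266 to 40992 CPM and 18829 to 45402 CPM). Of the 5 choroid plexus markers tested in NTS 3 were lower in SHRs (median -1.66), with sums of 2.88 to 4434 CPM in WKY rats and 1.97 to 9.69 CPM in SHRs. Of the 3 ependyma markers tested in NTS 1 was lower in SHRs, Ccdc153 at -1.77 ± 0.31 (adjusted p = 4.08e-05), and the list median was -0.61. Its sums ran from 2.49 to 48.0 CPM in WKY rats and from 0.828 to 16.9 CPM in SHRs. The part of ependyma in the Tac1 result was not tested. In RVLM, where Tacr1 was higher in SHRs, none of the 5 noradrenergic and adrenergic markers tested was called by edgeR, with a median of 0.57 and 2 of 5 at an unadjusted p under 0.05 (sums of 26.8 to 184 CPM in WKY rats and 53.0 to 337 CPM in SHRs), and the 2 glutamate neuron markers tested had a median of 0.42. None of the 4 inhibitory markers was called in RVLM, with a median of 0.30 and the largest effect for Slc6a5, 0.40 ± 0.18 (adjusted p = 0.182). Their sums ran from 121 to 579 CPM in WKY rats and from 147 to 684 CPM in SHRs. The part of inhibitory neurons in the Tacr1 result was not tested. Of 5 astrocyte markers 1 was higher in RVLM of SHRs, Aldh1l1 at 0.36 ± 0.08 (adjusted p = 0.00151). All 4 blood genes were lower in SHRs in RVLM and in CVLM, with medians of -0.78 and -0.97, and their part in the results on the members of those regions was not tested. With the levels of the oligodendrocyte, noradrenergic and cholinergic lists as terms in the fit, an alternative chosen after seeing the data, the effect on Tacr3 in NTS was -0.73 ± 0.11 (adjusted p = 1.97e-06), and without the 4 NTS libraries rich in Ttr it was -0.90 ± 0.17 (adjusted p = 1.35e-04). The effect on Tacr1 in RVLM was 0.83 ± 0.16 with the list levels as terms (adjusted p = 3.39e-04). Tacr1 in RVLM hardly followed these lists (r = 0.10, 0.05 and -0.09), so that the terms could change its effect only little. The inhibitory list, which it followed more closely (r = 0.37), was not among the terms. For Tac1 the same terms gave -0.36 ± 0.16 in NTS, -0.21 ± 0.08 in CVLM and -0.39 ± 0.15 in RVLM, and none passed the test (adjusted p = 0.224, 0.1003 and 0.0817). For Tac3 in NTS they gave 0.61 ± 0.22 (adjusted p = 0.0984), and leaving out the libraries rich in Ttr gave 0.65 ± 0.27 (adjusted p = 0.150). Tac3 in NTS also moved with the blood list (r = 0.64), of which 2 of 4 genes were lower in SHRs there (sums of 322 to 2007 CPM in WKY rats and 148 to 1345 CPM in SHRs), and the part of blood in the Tac3 result was not tested.

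The genes that handle the peptides and the receptor signal were followed as a list of 30 genes beyond the members, among which Tac4 and Tacr2 held at most 11 and 6 counts in any library and were not tested. The list had 26, 26 and 27 genes tested in NTS, CVLM and RVLM, of which 0 were higher in SHRs and 2, 1 and 2 were lower. The share called was thus below that over all genes tested (11.2%, 12.3% and 10.8%), and the called genes are given as values only. The median log2 fold change of the list was 0.02, 0.04 and -0.0034, beside 0.01, -0.0030 and 0.01 over all genes tested. Among the peptidases, Ace, the angiotensin-converting enzyme that also cleaves substance P, was lower in SHRs, with effects of -0.31 ± 0.09 in NTS and -0.19 ± 0.06 in CVLM (adjusted p = 0.0167 and 0.0225). Dpp4, which trims amino-terminal dipeptides, was lower, with an effect of -0.92 ± 0.24 in RVLM (adjusted p = 0.00552). Of the processing enzymes, Pcsk1, a prohormone convertase, was lower, with an effect of -0.27 ± 0.08 in NTS (adjusted p = 0.0302). Of the secretory granule genes, Chga, which encodes chromogranin A, was lower, with an effect of -0.21 ± 0.07 in RVLM (adjusted p = 0.0235). None of the 6 genes of receptor desensitisation and none of the 8 genes of Gq signalling was called in any region. Mme, which encodes neprilysin, a main substance P peptidase, had effects of 0.23 ± 0.10, 0.19 ± 0.12 and 0.43 ± 0.16 in NTS, CVLM and RVLM and did not pass the test (adjusted p = 0.166, 0.371 and 0.0988).

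The genes whose level over the 30 groups of region, strain and age was most like that of each member were named by Pearson r of log2 CPM. For Tacr3 they were Syt5, Rsph9, Gpx3, Nol4 and Klhdc8b, with r of 0.97 each. For Tac3 they were Duox2, Cplx2, Grm8, Foxp2 and Snap47, with r between 0.91 and 0.93. For Tac1 they included AABR07016141.1, Uck1, Rpn1 and Slc27a3 (r of 0.85 to 0.86), and for Tacr1 they were Jph3, Gpatch2, LOC103689996, Emilin1 and Rc3h1 (r of 0.71 to 0.77). Group means of 3 regions that differ in most genes give high values to many genes, so that the within-region deviations were examined too. In NTS, Tacr3 moved most closely with Pnmt (r = 0.83), Tfap2b (r = 0.81) and Rprm (r = 0.79), and Tac1 with Pgrmc1, Cartpt and Gap43 (r = 0.78 each). In RVLM, Tac1 moved most closely with Nppc, Arg1 and Rsph9 (r = 0.81, 0.79 and 0.71), Tac3 with AABR07017250.1, Calb2 and Ndufaf3 (r of 0.65 to 0.69), Tacr1 with Ogdhl, Gaa and Tepsin (r of 0.64 to 0.68) and Tacr3 with Oprk1, Camkv and AABR07040095.1 (r of 0.67 to 0.69). In CVLM the closest genes were Srp14, Psmb4 and Atp6v1g1 for Tac1, Clk2, Il11ra1 and AC128207.1 for Tac3, Golga2, Hpcal4 and Htr1a for Tacr1 and Sphkap, Brinp2 and Ttc38 for Tacr3, with r between 0.65 and 0.77. In NTS those of Tac3 were Slc30a3, Fxyd7 and Prxl2b (r of 0.79 to 0.81) and those of Tacr1 were Armcx2, Cplx2 and Galnt16 (r of 0.67 to 0.72).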

How the data were processed

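RNA from NTS, CVLM and RVLM punches of 46 female rats was analysed as 1 table per region (46 libraries in each), with 0 columns left unused. The deposited values are expected counts per gene, which the authors made by mapping paired reads to rn6 and quantifying with RSEM. The methods name a batch adjustment, ComBat_seq. No source used here says if the values analysed were taken before or after it. Groups came from the titles. In 2 CVLM libraries, replicate 5 at 8 wk of each strain, the age label reads 10 wk. The members and lists were chosen with earlier results of these data known.

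Counts were rounded and genes with a largest rlog value of at least 3.5 in a region were kept (13793 in NTS, 13408 in CVLM and 13411 in RVLM). CPM used TMM-scaled library sizes. edgeR 4.0.16 quasi-likelihood tests (R 4.3.3) were made in 1 fit per region with 10 groups of strain and age, and in a joint fit with the rat as a block for regions, since the library names tie the 3 libraries of a rat together. Adjusted p-values are Benjamini-Hochberg over all genes tested, called under 0.05. In the joint fit, calls without 1 rat were judged for the members alone, by the largest unadjusted p that was called with all rats. No 2 libraries of a group agreed within sampling noise. The rats were housed singly, and the labels do not give litters, so p-values measure the spread between these rats. Depth limits the precision of Tac3 and Tacr1, for which libraries held few counts.

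Genes named beyond the members were partner genes called for strain, with Mme added after its values were seen, and the 5 genes most like a member over group means and the 3 within each region. Some items that these rules would name are not reported here. Alternatives were DESeq2 1.42.0, limma 3.58.1, other filters and scaling, each age alone, a replicate block, leaving out each rat, the library-name number, the conflicting labels and 2 choices made after seeing the data (libraries with over 100 CPM of Ttr left out, and the levels of 3 marker lists as terms). Scripts were tested on simulated data. Figures were drawn with matplotlib 3.10.9 in Python 3.11.15.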

Additional observations from a re-analysis of the deposited data

Results flagged for a closer look

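In 9 of 84 groups of 4 to 6 rats, 1 rat lay far from the others (Dixon's test, which chance passes in about 1 in 20 groups). For Tac1 these were SHR replicate 1 at 16 wk in NTS, the highest at 187 CPM with the next rat at 95.3, SHR replicate 2 at 24 wk in CVLM, at 127 CPM with the next at 91.1, WKY replicate 1 at 8 wk in CVLM, the lowest at 96.3 CPM with the next at 121, and SHR replicate 3 at 16 wk in RVLM, at 127 CPM with the next at 78.1. For Tac3 in RVLM they were SHR replicate 2 at 10 wk, at 3.55 CPM with the next at 1.20, and SHR replicate 3 at 24 wk, at 2.23 CPM with the next at 0.973. For Tacr1 they were SHR replicate 4 at 12 wk in CVLM, at 7.65 CPM with the next at 5.21, and SHR replicate 3 at 8 wk in RVLM, at 12.0 CPM with the next at 7.17. For Tacr3 it was SHR replicate 3 at 16 wk in RVLM, at 7.13 CPM with the next at 4.44.

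The strain effect over ages differed between regions, by the test of the difference in the joint edgeR fit, for Tacr3 between NTS and CVLM (-0.92, adjusted p = 0.00698), for Tacr3 between NTS and RVLM (-1.05, adjusted p = 7.39e-04) and for Tacr1 between NTS and RVLM (-0.85, adjusted p = 0.00110).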

How the results depend on the processing

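The strain effects over ages on Tacr3 in NTS and Tacr1 in RVLM kept their direction under every alternative run, single rats left out included. Their calls held wherever a test was made, but the fit of each age alone gave no p-value over ages. The 3 differences of strain effects called between regions kept direction and call under the alternatives run for the joint fit. Those did not include DESeq2 tests, the library-name number as a term, marker lists as terms or libraries rich in Ttr left out. Calls on Tac1 were less stable. In NTS its effect over ages was -0.44 with DESeq2 size factors (adjusted p = 0.0532), with filterByExpr (0.0528), with the library-name number as a term (0.0542) and with no filter (0.0783). It was -0.48 without libraries rich in Ttr and -0.36 with marker lists as terms. In CVLM it was -0.21 with marker lists as terms and -0.22 without the number-2 libraries (0.0710), and in RVLM -0.39 and -0.47 (0.0748). For Tac3 the effect was 0.49 in CVLM without the number-2 libraries (0.0626), and in NTS 0.65 without libraries rich in Ttr and 0.61 with marker lists as terms. For Tacr1, NTS minus CVLM in SHRs was -0.19 without the rats with conflicting labels (0.124), -0.24 with filterByExpr (0.0544) and -0.23 with no replicate block for the rat (0.0817), and the CVLM strain effect rose to 0.36 without the Ttr-rich library. The cause was not tested. Under alternatives other than leaving out 1 rat, calls at a single age were lost 12 times, and effects not called at an age became called 11 times. Not all of these changes are given with values here.

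Values turned sign, none of them called, for the Tac1 difference NTS minus RVLM without the number-2 libraries (-0.045), Tacr1 in NTS with marker lists as terms (0.043), Tacr3 in CVLM without the Ttr-rich library (0.052), Tac3 in NTS at 12 wk without libraries rich in Ttr (-0.25) and with marker lists (-0.035) and at 8 wk without number-2 libraries (-0.025), and Tac1 in NTS at 24 wk without them (-0.054). Tac1 in CVLM at 16 wk gave -0.0037 fitted alone, -0.020 with marker lists, -0.0023 with no filter and -0.0056 without number-2 libraries. Raw totals moved mean CPM to 119 for Tac1 in CVLM of WKY rats at 10 wk, and to 6.16 for Tacr1 and 60.6 for Tacr3 in NTS of WKY rats at 12 wk.

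With a replicate block for same-numbered rats of the 2 strains, the effect over ages was -0.26 for Tac1 in CVLM (0.0635), -0.40 for Tac1 in RVLM (0.0715) and 0.60 for Tac3 in CVLM (0.0532), the calls at 1 age on Tac3 at 8 wk in CVLM (1.05, adjusted p = 0.0597) and Tacr3 at 12 wk in NTS (-1.03, 0.0583) were also lost, Tac1 was -0.25 at 24 wk in NTS and 0.0067 at 12 wk in RVLM, and genes called numbered 1447 in NTS, 1352 in CVLM and 965 in RVLM against 1541, 1646 and 1451. The numbers here are the replicate numbers of the titles. At 8 wk these differ from the numbers in the names of the WKY rats, so that each 8 wk pair joined rats with different name numbers. Same-numbered rats deviated together (r over 0.1) in 12, 13 and 7 of 18 pairs in NTS, CVLM and RVLM. Of the 18 WKY rats, 7, 10 and 4 correlated best with their own number, each among the 5 or 6 SHRs of its age. Not every pair was over 0.1, and the labels name no shared litter, batch or day, so that the block was kept as an alternative, but whether numbers mark a shared feature in NTS and CVLM is not known. A block lies within an age, so age effects with it were not run. DESeq2 called 73 genes in CVLM for a change of the strain effect with age, against 3.

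Leaving out 1 rat gave ranges of -0.50 to -0.36 for Tac1 in NTS, -0.54 to -0.42 in RVLM, -0.053 to 0.13 for its difference NTS minus RVLM, -0.00035 to 0.12 for NTS minus CVLM in SHRs and 0.22 to 0.35 in WKY rats, and at single ages -0.54 to 0.018 (RVLM, 12 wk), -0.15 to 0.090 (CVLM, 16 wk) and -0.081 to 0.50 (NTS, 24 wk). For Tac3 they were 0.64 to 0.97 in RVLM, -0.27 to 0.080 for the difference NTS minus RVLM, 0.62 to 0.96 for NTS minus RVLM in WKY rats and -0.11 to 0.41 in CVLM at 16 wk. For Tacr1 they were 0.21 to 0.36 in CVLM, -0.094 to 0.039 in NTS, -0.029 to 0.13 for CVLM minus RVLM in WKY rats and -0.29 to -0.19 for NTS minus CVLM in SHRs, and for Tacr3 -0.088 to 0.052 in CVLM.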
